A study of Mus musculus with 12 samples.

Results

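Levels of miR-26a-5p and miR-26b-5p (mmu-miR-26a-5p and mmu-miR-26b-5p in the count table), the 2 guide strands of the miR-26 family, were examined in small RNA libraries of blood extracellular vesicles (bEVs). They are 2 of the 1995 features (1885 miRNAs and 110 piRNAs) that were counted. Both were selected by name because a measured value, their difference between the groups, had drawn attention to them in these same libraries. Their difference between the groups is therefore given as a description, with no test. All mice carried the Rag1-/- genotype and so lacked mature T and B cells. They were male, on the C57BL/6 background, and experiments were usually run at 8 to 12 weeks of age. In the T cell group, 6 mice had received 10000000 wild-type (WT) spleen T cells each by intravenous injection. In the medium group, 6 mice had received the vehicle. The T cell group differed in having transferred cells of several T cell subsets, since the isolation took T cells as a whole, and vesicles of any cell that sheds into blood could enter the same libraries. In such bulk material, fewer vesicles of a type and less RNA per vesicle cannot be told apart.

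The libraries held 75475 to 130106 counts in the T cell group and 48997 to 116048 counts in the medium group. The mean totals of 98006 ± 18719 and 83642 ± 26909 counts (SD, n = 6 libraries a group) did not differ beyond their spread (p = 0.312, exact two-sided permutation over 6 against 6). No count between 1 and 9 occurred in T cell replicate 2 or medium replicate 3, and the fits were also run without both. The scaling factors of the trimmed mean of M values (TMM) were 0.668 to 1.18 in the T cell group and 0.974 to 1.32 in the medium group. Only T cell replicate 6, among the T cell libraries, had a factor above 1.

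miRNAs are cut from hairpin precursors. One strand of the resulting duplex, the guide, is kept by an Argonaute protein and pairs through its seed with target mRNAs, while the other, the passenger, is mostly degraded. The miR-26 guides restrain proliferation in many tissues, and their known targets include Ezh2, the histone methyltransferase of Polycomb repressive complex 2. The hairpins lie in introns of Ctdsp genes, which encode small phosphatases of the RNA polymerase II C-terminal domain. In zebrafish, miR-26b represses the transcript of its own host gene, ctdsp2, as neurons differentiate. Because miR-26 is made in most cell types, its presence in serum does not name a source.

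The 2 guides are printed because their shared seed, bases 2 to 8 in capitals, is what makes them a family, and because the few bases that differ are what allows the counting to separate them (RefSeq, GRCm38.p6, 5′ to 3′).
miR-26a-5p: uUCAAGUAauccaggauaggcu
miR-26b-5p: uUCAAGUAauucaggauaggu
The substitutions from miR-26a-5p to miR-26b-5p are C11U and C21U, counted from 1 at the 5′ end. The mature strands are 22 and 21 bases long, so miR-26a-5p also has 1 further base at its 3′ end. Among 1679 mature mouse miRNAs in the same RefSeq table, the seed UCAAGUA was found in these 2 alone (0.119%). The closest other mature miRNA that shares neither seed nor family was miR-6927-5p, with 8 differences. Reads of the 2 guides thus differ at a single internal base, at position 11, and at their 3′ ends. The number of mismatches allowed in the alignment is not given in the sources used here.

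The 3 hairpins are printed with the guide arm in capitals. That arm differs at 2 positions between miR-26a and miR-26b. The passenger arm differs at 6 positions between Mir26a-1 and Mir26a-2. Against Mir26b, it differs at 8 positions for Mir26a-1 and at 4 for Mir26a-2.
Mir26a-1: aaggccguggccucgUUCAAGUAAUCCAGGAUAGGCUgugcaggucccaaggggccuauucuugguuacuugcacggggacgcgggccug
Mir26a-2: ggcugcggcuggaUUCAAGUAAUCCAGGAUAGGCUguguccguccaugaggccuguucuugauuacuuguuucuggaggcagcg
Mir26b: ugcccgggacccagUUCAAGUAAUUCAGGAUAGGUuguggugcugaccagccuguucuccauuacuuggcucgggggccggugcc
Mir26a-1 lies on the + strand at chr9:119031796-119031885 (GRCm38), within intron 5 of Ctdspl (a transcript of 8 exons, an intron of 3283 bp). Mir26a-2 lies on the + strand at chr10:126995530-126995613, within intron 5 of Ctdsp2 (8 exons, an intron of 1946 bp). Mir26b lies on the + strand at chr1:74394310-74394394, within intron 4 of Ctdsp1 (7 exons, an intron of 564 bp). Each hairpin has the same orientation as its host gene. Mir26a-1 and Mir26a-2 give an identical guide, so the count of miR-26a-5p is a sum over both loci and cannot be divided between them, whereas their passenger strands differ at 6 positions and are counted apart.

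miR-26a-5p was more abundant in the bEVs of the T cell group. Its counts were 532, 809, 657, 597, 487 and 439 in T cell replicates 1 to 6, against 436, 189, 380, 394, 161 and 107 in medium replicates 1 to 6. After TMM scaling, these became 6490, 9406, 9020, 6156, 8206 and 3702 CPM (counts relative to the scaled library size) in the T cell group, against 3927, 2744, 3300, 3657, 1919 and 1678 CPM in the medium group. All T cell libraries but 1 lay above the highest medium library. The exception was T cell replicate 6, which lay below medium replicate 1. The mean was 7163 ± 2145 CPM in the T cell group and 2871 ± 923 CPM in the medium group (SD, n = 6 each), a 2.50-fold ratio of means. The fitted log2 fold change (T cell over medium) was 1.32 (SE 0.31).

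miR-26b-5p showed the same order of groups at a lower level. Its counts were 290, 607, 389, 297, 278 and 298 in T cell replicates 1 to 6, against 321, 157, 290, 236, 90 and 92 in medium replicates 1 to 6. The scaled levels were 3538, 7057, 5341, 3062, 4684 and 2513 CPM in the T cell group, against 2891, 2279, 2518, 2191, 1072 and 1443 CPM in the medium group. Again, T cell replicate 6 was the one T cell library that did not exceed every medium library. The mean was 4366 ± 1680 CPM in the T cell group and 2066 ± 681 CPM in the medium group (SD, n = 6 each), a 2.11-fold ratio. The fitted log2 fold change was 1.08 (SE 0.31).

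**Figure D1:**
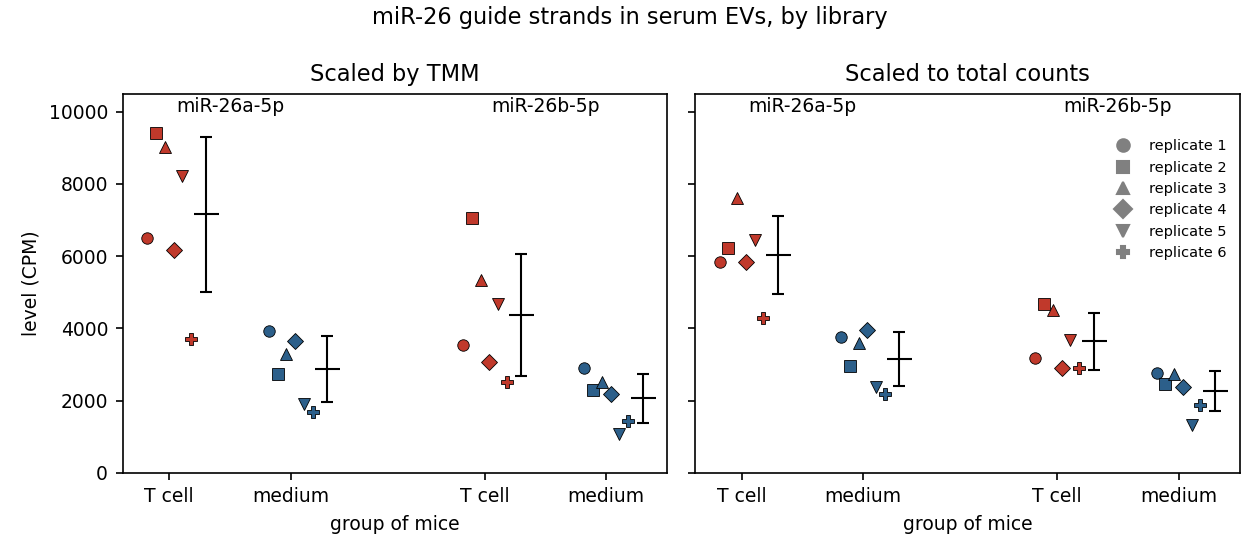
Level of each guide strand by library (CPM), after TMM scaling (left) and over total counts (right), with the T cell group in red and the medium group in blue, marker shapes for replicates and bars for the mean and SD of 6 libraries. Under TMM, T cell replicate 6 falls among the medium libraries for both guides, and over total counts the groups do not overlap.

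The scaling decided whether the groups overlapped. Over total counts, miR-26a-5p was at 4284 to 7596 CPM in the T cell group, with a median of 6032, and at 2184 to 3964 CPM in the medium group, with a median of 3270. On the same scale, miR-26b-5p was at 2908 to 4665 CPM after T cell transfer (median 3429) and at 1332 to 2766 CPM after medium injection (median 2410). Every T cell library then lay above every medium library for both guides, which was true of 4 of 1720 tested features (0.233%). Under TMM, this was true of neither guide and of 3 of 1720 features (0.174%). Since both guides were chosen for this contrast, nothing is read from these shares. The log2 fold change over total counts was 0.94 for miR-26a-5p and 0.68 for miR-26b-5p, while the median over all tested features moved to -0.38, from -0.05 under TMM. Relative to that median, the differences were 1.32 and 1.07 over total counts and 1.37 and 1.13 under TMM.

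The calls that had singled out the guides depended on the test. The quasi-likelihood test of edgeR with Benjamini-Hochberg adjustment called 0 of 1720 features higher (0%) and 0 lower (0%) at an adjusted p of 0.05. At an unadjusted p under 0.05 it had 87 features higher (5.06%) and 33 lower (1.92%), and limma voom also called 0 features after adjustment, and had 119 at p under 0.05 before adjustment. By contrast, DESeq2 called 40 of the 561 features that it adjusted higher (7.13%) and 4 lower (0.713%), and both guides were among the 40. These calls belong to the contrast by which the guides were chosen and support nothing further. That of miR-26b-5p was lost when medium replicate 5 was left out of the DESeq2 fit.

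The spread between libraries was wider than counting error. After TMM scaling, the coefficient of variation (CV) of miR-26a-5p was 29.9% in the T cell group and 32.2% in the medium group, against 4.21% and 6.87% from counting alone. For miR-26b-5p it was 38.5% after T cell transfer and 33.0% after medium injection, against 5.48% and 8.08%. The size of the spread depended on the scaling. Over total counts, the CV of miR-26a-5p was 17.8% in the T cell group and 23.8% in the medium group, and that of miR-26b-5p was 21.6% in the T cell group and 24.6% in the medium group. Preparation and mouse cannot be told apart in this spread, since each mouse gave 1 library. Under TMM, both guides were about as steady as other features of similar count, with tagwise biological coefficients of variation of 0.364 and 0.374, beside a median of 0.412 in the 25 other features with a mean count of 200 to 600.

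Within libraries, miR-26a-5p ranked 17th to 24th of all features by count in the T cell group and 19th to 41st in the medium group. miR-26b-5p ranked 28th to 33rd after T cell transfer and 34th to 84th after medium injection. Both guides together took 0.968 ± 0.173% of all counts in the T cell group (0.719 to 1.21%) and 0.539 ± 0.124% in the medium group (0.372 to 0.652%; SD, n = 6 each), with no overlap between groups. This share is their summed level over total counts. On that scale, every T cell library lay above every medium library for 4 of 1720 tested features (0.233%). Under TMM, T cell replicate 6 lay among the medium libraries for both guides. The ranks of miR-26a-5p overlapped between groups. Rank and share restate the contrast by which the guides were chosen and are not further support.

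miR-26a-5p exceeded miR-26b-5p in 12 of 12 libraries. The ratio of counts was 1.83, 1.33, 1.69, 2.01, 1.75 and 1.47 in T cell replicates 1 to 6, against 1.36, 1.20, 1.31, 1.67, 1.79 and 1.16 in medium replicates 1 to 6. Over all libraries the mean log2 ratio was 0.61 ± 0.26 (SD, n = 12), which differed from 0 in a two-sided exact sign-flip permutation test (p = 0.000488, the smallest that 12 libraries allow). The ratio does not depend on the scaling, since both counts come from one library, and the guides differ in length by 1 base. It compares counts, and whether the libraries captured both guides equally well was not tested.

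The share of miR-26a-5p in the counts of both guides was 57.1 to 66.8% in the T cell group and 53.8 to 64.1% in the medium group. The mean was 62.4 ± 3.52% after T cell transfer and 58.2 ± 4.22% after medium injection (SD, n = 6 each). The 95% Wilson interval lay above equal shares in 10 of 12 libraries. In medium replicate 2 it ran between 49.4 and 59.8%, and in medium replicate 6 between 46.8 and 60.6%. These intervals cover counting error only, and reads copied from one molecule would make them too narrow.

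**Figure D2:**
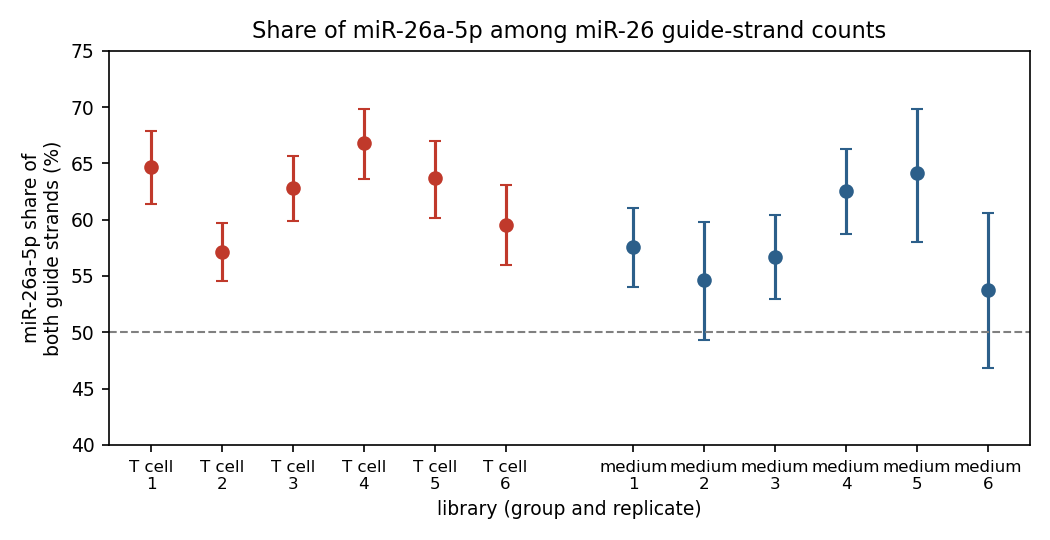
Share of miR-26a-5p in the summed counts of both guide strands (percent) by library, with 95% Wilson intervals, T cell libraries in red and medium libraries in blue. The dashed line marks equal shares, and all 12 points lie above it.

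The ratio of the guides had a higher mean in the T cell group, with overlap between the groups, and this difference was not tested. The mean log2 ratio was 0.74 ± 0.22 in the T cell group (0.41 to 1.01) and 0.48 ± 0.25 in the medium group (0.22 to 0.84; SD, n = 6 each). The difference of 0.25 was slightly larger than the pooled SD of 0.235 between libraries. Above the highest medium library lay 2 T cell libraries, and 0 lay below the lowest. Counting error gave an SD of 0.0997 in the T cell group and 0.153 in the medium group, so part of the spread of each ratio was counting. The 2 guides were thus higher together, while the excess of miR-26a-5p over miR-26b-5p overlapped between groups.

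Within groups, the levels of the guides had positive correlations, of which only the rank correlation in the T cell group passed after adjustment. In the T cell group the correlation of their log2 CPM was r = 0.92 (two-sided exact permutation test, n = 6, p = 0.00972, adjusted 0.0778), with a Spearman rho of 1.0 (exact p = 0.00278, adjusted 0.0222). In the medium group it was r = 0.886 (exact permutation p = 0.0306, adjusted 0.122), with a rho of 0.771 (exact p = 0.103, adjusted 0.35). Adjustment was over 8 relations of this kind. Without the 2 libraries farthest from the median of miR-26a-5p, r was 0.993 in the T cell group and 0.527 in the medium group, so the medium value rests on medium replicates 5 and 6. Over total counts, r was 0.725 in the T cell group and 0.788 in the medium group. Neither was tested, and the rank correlation was not computed on that scale. The levels share the scaling factor of their library.

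The passenger strands are shown because they come from the same 3 hairpins and played no part in choosing the guides (RefSeq, GRCm38.p6, 5′ to 3′).
miR-26a-1-3p: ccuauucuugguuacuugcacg
miR-26a-2-3p: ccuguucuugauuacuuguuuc
miR-26b-3p: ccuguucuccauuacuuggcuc
None of the 3 passenger strands had a higher mean in the T cell group, and none passed the test. miR-26a-1-3p, from the Ctdspl intron, had 17, 13, 12, 29, 14 and 25 counts in T cell replicates 1 to 6, against 17, 19, 40, 37, 19 and 20 counts in medium replicates 1 to 6. It averaged 212 ± 53.1 CPM after T cell transfer and 277 ± 75.7 CPM after medium injection, a log2 fold change of -0.38 (SE 0.31; edgeR quasi-likelihood test, adjusted p = 0.990). These counts are low, and counting alone gives CVs of 24.7% after T cell transfer and 21.1% after medium injection.

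miR-26a-2-3p, from the Ctdsp2 intron, had 46, 29, 15, 21, 7 and 52 counts in T cell replicates 1 to 6, against 55, 22, 36, 50, 33 and 34 counts in medium replicates 1 to 6. It averaged 313 ± 165 CPM after T cell transfer and 420 ± 92.6 CPM after medium injection, a log2 fold change of -0.40 (SE 0.32; edgeR, adjusted p = 0.990). T cell replicate 5 was the lowest library by count and on either scale. The highest was T cell replicate 1 after TMM scaling and medium replicate 6 over total counts, and the groups overlapped on both scales. miR-26b-3p, from the Ctdsp1 intron, had 57, 14, 10, 25, 26 and 52 counts in T cell replicates 1 to 6, against 40, 15, 31, 32, 58 and 19 counts in medium replicates 1 to 6. It averaged 355 ± 211 CPM after T cell transfer and 356 ± 171 CPM after medium injection. Its log2 fold change was -0.0035 (SE 0.38; edgeR, adjusted p = 0.999). That value is too close to 0 to carry a direction, and its sign changed with the fitting tool and with the libraries left out.

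**Figure D3:**
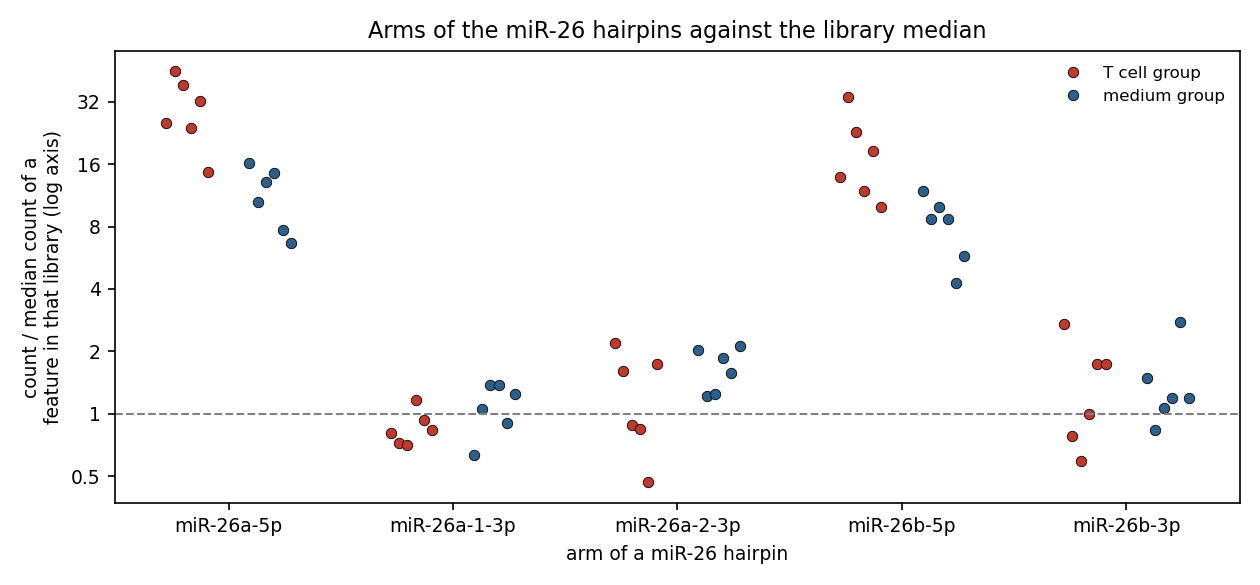
Counts of each arm of the miR-26 hairpins divided by the median count of a feature in the same library (log axis), 1 point per library, T cell group in red and medium group in blue. The guides lie 4.29 to 44.9 times above the dashed line at the library median, and the passenger strands lie between 0.467 and 2.76 times that median.

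All passenger strands sat near the median count of a feature, which was only 15 to 30 counts a library. Whether such counts rise above background was not tested, so their fold changes say little about the loci. Their counts were 0.467 to 2.71 times the median count of the library in the T cell group and 0.630 to 2.76 times in the medium group. The guides reached 9.93 to 44.9 times the median after T cell transfer and 4.29 to 16.1 times after medium injection. The log2 ratio of miR-26a-5p to the sum of its 2 passengers averaged 3.75 ± 0.84 in the T cell group and 1.98 ± 0.58 in the medium group (SD, n = 6 each), geometric means of 13.4-fold and 3.94-fold, and 5 T cell libraries lay above the highest medium library. The log2 ratio of miR-26b-5p to miR-26b-3p averaged 3.73 ± 1.31 in the T cell group and 2.55 ± 1.01 in the medium group (SD, n = 6 each), and 4 T cell libraries lay above the highest medium library. The differences of these ratios between groups contain the guides' own difference and were not tested.

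Guides exceeded passengers in 12 of 12 libraries for both miR-26a and miR-26b. The mean log2 ratio over all libraries was 2.86 for miR-26a and 3.14 for miR-26b. This is a description, since strands are named guide and passenger by which of them is kept. The ratio of miR-26a-2-3p to miR-26a-1-3p, which compares the passengers of the 2 miR-26a loci, had a log2 mean of 0.41 ± 0.95 after T cell transfer and 0.61 ± 0.62 after medium injection (SD, n = 6 each). It was above 0 in 4 of 6 T cell libraries and 5 of 6 medium libraries. Within groups, guide and passenger levels of a hairpin had Pearson correlations of -0.152 to -0.679 in 6 relations, none of which passed an exact permutation test after adjustment over the 8 relations (lowest adjusted p = 0.367, and 0.35 for Spearman's rho). These signs are not stable. Without medium replicates 5 and 6, r in the medium group became 0.853 for miR-26a-5p with miR-26a-2-3p and 0.674 for miR-26b-5p with miR-26b-3p.

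**Figure D4:**
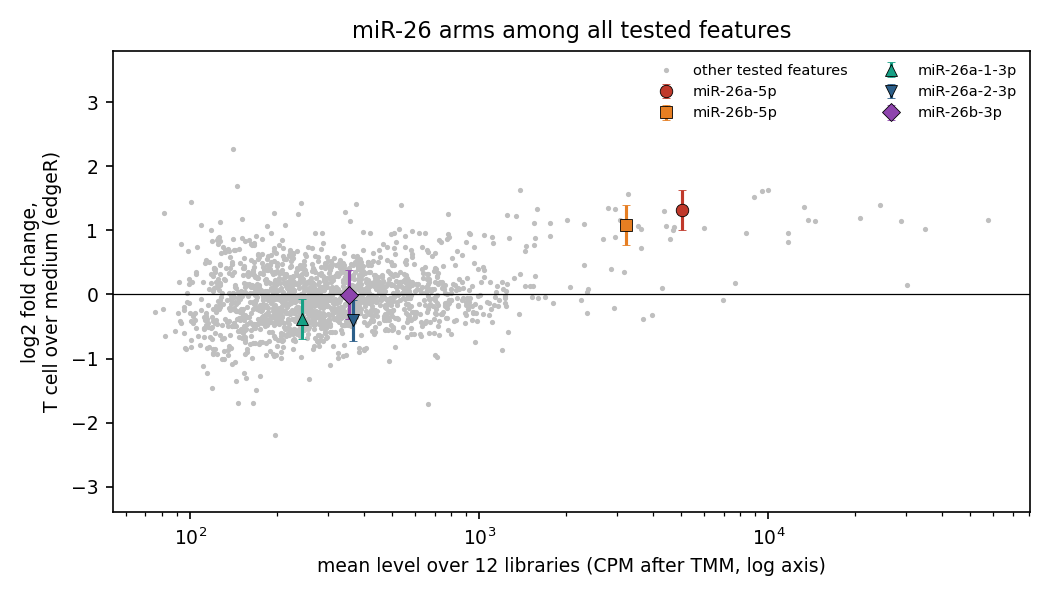
Log2 fold change (T cell over medium, edgeR) against the mean level over 12 libraries (CPM after TMM, log axis) for 1720 tested features in grey, with the 5 miR-26 arms in colour and bars of 1 SE. The guides, at 1.32 and 1.08, lie among abundant features, and the passengers lie within the bulk at low level.

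The guides stood high among all features and less so among features of like abundance. Of the 1720 tested features, 16 had a larger log2 fold change than miR-26a-5p and 40 a larger one than miR-26b-5p. The median over all tested features was -0.05. In the 25 other features with a mean count of 200 to 600, the median was 0.90, with 3 features above miR-26a-5p and 5 above miR-26b-5p. Most features as abundant as the guides thus had positive log2 fold changes on this scale.

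The neighbours in level show this from close by. miR-26a-5p was the 19th most abundant tested feature. Just above it stood miR-21a-5p, a miRNA rich in myeloid cells, with a log2 fold change of 0.96, miR-107-3p (0.18), miR-6377 (-0.09) and miR-25-3p (1.04). Just below it stood miR-92a-3p (1.05), miR-30d-5p (1.01), miR-486a-3p (0.86) and miR-93-5p (1.07). None of these 8 passed the edgeR test (lowest adjusted p = 0.370). Among them only miR-107-3p and miR-6377 had log2 fold changes near 0.

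miR-26b-5p was the 33rd. Above it stood miR-223-3p, a neutrophil and platelet miRNA, with a log2 fold change of 1.03, miR-128-3p (1.06), miR-125b-5p (1.57) and miR-30a-5p (1.03). Below it stood miR-6946-3p (0.35), miR-140-3p (1.16), miR-16-2-3p (1.34) and miR-486b-3p (0.90). None passed the edgeR test (lowest adjusted p = 0.204, for miR-125b-5p). All 8 had positive values, and 3 of them were above that of miR-26b-5p.

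By profile over the 12 libraries, the guides resembled each other and a small set of abundant miRNAs. The likeness was the Pearson correlation of log2 CPM over 12 libraries, taken as a description among 303 features with a mean count of 50 or more. All such profiles share the scaling factors and the difference between groups. miR-26a-5p was the feature most like miR-26b-5p (r = 0.952), and miR-26b-5p came 4th for miR-26a-5p. After each group mean was removed, r between the guides was 0.903.

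The features most like miR-26a-5p were miR-191-5p (r = 0.957), let-7f-5p (0.955), let-7c-5p (0.955), let-7b-5p (0.945), miR-23a-3p (0.939) and let-7b-3p (0.939). Those most like miR-26b-5p were let-7f-5p (r = 0.930), miR-191-5p (0.926), let-7a-5p (0.919), miR-30e-5p (0.917), miR-223-3p (0.913) and let-7c-5p (0.908). The median r over the compared features was 0.0118 for miR-26a-5p and 0.0215 for miR-26b-5p. With group means removed, the named correlations for miR-26a-5p were between 0.817 for miR-23a-3p and 0.954 for let-7f-5p. miR-191-5p, hosted in an intron of Dalrd3, averaged 14995 CPM after T cell transfer and 4870 CPM after medium injection, and was another of the 4 features without overlap over total counts. let-7f-5p, a member of the largest mammalian family of growth-restraining miRNAs, averaged 28886 CPM after T cell transfer and 12608 CPM after medium injection.

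**Figure D5:**
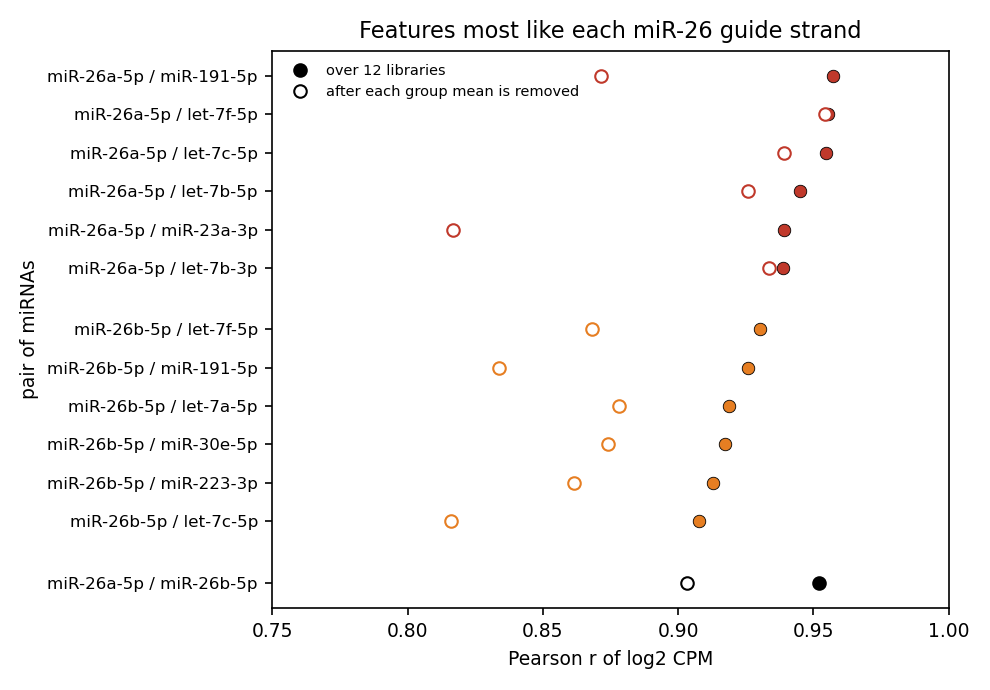
Pearson correlation of log2 CPM between each guide and the 6 features most like it, over 12 libraries (filled) and after each group mean is removed (open), with the pair of guides at the bottom. All filled points lie between 0.908 and 0.957, and the open points between 0.816 and 0.954.

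Other miRNAs with targets or a genomic setting like those of miR-26 were counted as lists. Among 9 repressors of Ezh2, edgeR called 0 higher and 0 lower after adjustment. At an unadjusted p under 0.05, 6 had higher and 0 lower values (5.06% and 1.92% of all features). DESeq2 called 2 of the 8 that it adjusted higher (7.13% of all 561 features that it adjusted). The median log2 fold change was 1.00, beside -0.05 over all features. The most abundant, let-7c-5p, averaged 35207 ± 14084 CPM after T cell transfer and 13352 ± 5867 CPM after medium injection. let-7b-5p had a log2 fold change of 1.14 (SE 0.39) and let-7a-5p of 1.16 (SE 0.42), while miR-138-5p had 0.75 (SE 0.58). DESeq2 called let-7b-5p and let-7c-5p. These members of the let-7 family are also the profiles most like the guides, so the count and the likeness are not separate observations.

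Of 10 miRNAs that restrain the G1/S transition, chiefly by repressing cyclins and their kinases, 9 were tested and miR-34c-5p was too low. edgeR called 0 in either direction, and 5 had higher and 0 lower values at an unadjusted p under 0.05 (5.06% and 1.92% of all features). DESeq2 called 1 of the 6 that it adjusted higher, miR-195a-5p (7.13% of all 561 features that it adjusted). The median was 0.70. miR-16-5p, the most abundant, averaged 79390 ± 49296 CPM after T cell transfer and 35673 ± 23864 CPM after medium injection. Its kin miR-195a-5p and miR-15b-5p had log2 fold changes of 0.89 (SE 0.26) and 0.94 (SE 0.38), and miR-15a-5p 0.74 (SE 0.31).

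Of 33 other miRNAs within introns of protein-coding genes, edgeR called 0 in either direction. At an unadjusted p under 0.05, 14 had higher and 0 lower values (5.06% and 1.92% of all features), and the median was 0.65. DESeq2 called 7 of the 26 that it adjusted higher (7.13% of all 561 features that it adjusted). The most abundant were miR-126a-3p from Egfl7, an endothelial gene (log2 fold change 1.36, SE 0.55), miR-191-5p (1.62, SE 0.37), miR-107-3p (0.18, SE 0.32) and miR-25-3p from Mcm7, which encodes a replication licensing factor (1.04, SE 0.49). The 3 lists share members and hold many abundant miRNAs, whose median was itself 0.90 at the counts of the guides.

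Marker miRNAs of cell types that could shed vesicles into serum were counted beside the guides, and their part in the levels of the guides was not tested. Over all features, 5.06% had higher and 1.92% lower values at an unadjusted p under 0.05. DESeq2 called 7.13% of the 561 features that it adjusted higher. These are the shares to set beside each marker count. The 7 T lymphocyte miRNAs had a median log2 fold change of 0.57. At an unadjusted p under 0.05, 2 were higher and 0 lower (5.06% and 1.92% over all features). DESeq2 called 1 of 7 higher (miR-146a-5p), beside 7.13% over the features that it adjusted. Their summed level was 12415 to 29171 CPM after T cell transfer and 6322 to 21615 CPM after medium injection. Most of it was miR-142a-3p, with means of 14880 CPM after T cell transfer and 8456 CPM after medium injection. Mice of the medium group lacked mature T cells, so this sum does not measure T cells alone. All 7 were detected in every library, the medium group included. Of the 1995 features counted, 1446 to 1859 were detected in a T cell library and 1670 to 1866 in a medium library. Detection alone thus does not set these 7 miRNAs apart. miR-150-5p, the most lymphocyte-restricted of them, averaged 1182 CPM after T cell transfer and 893 CPM after medium injection.

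Of 6 red blood cell miRNAs 5 were tested, with a median of 0.89, and none had an unadjusted p under 0.05 (0 of 5). Over all features, 5.06% were higher and 1.92% lower at that threshold. Their summed level was 14422 to 173036 CPM after T cell transfer, highest in T cell replicate 2, and 16816 to 65540 CPM after medium injection. That library also had the highest level of both guides under TMM. Without T cell replicate 2 alone, the log2 fold changes of miR-26a-5p and miR-26b-5p were 1.22 and 0.88. Without both it and medium replicate 3, they were 1.26 and 0.94. The part of red blood cells in these values was not tested. The 5 platelet and myeloid miRNAs had a median of 0.80, with 3 at an unadjusted p under 0.05, all higher (5.06% over all features). Their summed level was 11386 to 27124 CPM after T cell transfer and 5663 to 13515 CPM after medium injection. Both blood cell lists thus had positive medians, as the guides' class of abundance did.

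The 3 endothelial miRNAs had a median of 1.34, with all 3 higher at an unadjusted p under 0.05 (5.06% over all features). Their summed level was 8603 to 33094 CPM after T cell transfer and 2831 to 26684 CPM after medium injection. Of 4 liver miRNAs 3 were tested, with a median of 0.77 and 2 at an unadjusted p under 0.05, both higher (5.06% over all features). The summed level of the liver miRNAs was 2471 to 3892 CPM after T cell transfer and 1394 to 2855 CPM after medium injection. The 5 muscle miRNAs had a median of -0.15 and the 3 brain miRNAs one of 0.06, with 0 at an unadjusted p under 0.05 in either list. Summed levels were 1035 to 2578 CPM after T cell transfer and 1002 to 3716 CPM after medium injection for muscle, and 802 to 1399 CPM after T cell transfer and 813 to 1475 CPM after medium injection for brain. edgeR called 0 members of any marker list after adjustment. Of the members that it adjusted, DESeq2 called 2 of 4 platelet and myeloid and 2 of 3 endothelial miRNAs higher, beside miR-146a-5p. Over all 561 features that DESeq2 adjusted, it called 7.13% higher.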

How the data were processed

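Small RNAs of serum bEVs from 6 mice given T cells and 6 given medium had been sequenced by the authors (75-bp single-end reads, a library kit with unique molecular identifiers), with base calls from bcl2fastq 2.18.0.12 per the submitters' processing notes, and aligned to miRBase 21 and mm10 in the Qiagen GeneGlobe center. The deposited values are raw whole-number counts per feature. Whether they are reads or molecules is not stated. 12 table names stand for merged miRNAs.

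Features were filtered by filterByExpr (1720 kept: 1698 miRNAs and 22 piRNAs), scaled by TMM and fitted with edgeR 4.0.16 (quasi-likelihood test, R 4.3.3), adjusting p-values over the whole table (Benjamini-Hochberg). DESeq2 1.42.0 and limma 3.58.1 (voom) were alternatives, as were other scalings, filters, the replicate block and leaving out libraries. Ratios and correlations used exact tests in scipy 1.17.1 (Python 3.11.15), with 0.5 added to counts for strand ratios and a prior count of 2 for log2 CPM. The scripts were tested on simulated data.

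Named miRNAs were the guides, the other arms, features sharing the seed, the 6 most alike, 4 neighbours in level on each side and the 4 most abundant of each target or intron list. Others, and the marker lists' named members, were named after their values were seen. 1 list of miRNAs is not reported here. The guides and lists were chosen with earlier results of these data known. Libraries of one group are from separate mice, per the study's description. Introns are from GENCODE M21 (GRCm38).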

Additional observations from a re-analysis of the deposited data

Results flagged for a closer look

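miR-26b-3p, the passenger strand of the Ctdsp1 locus, was at 691 CPM in medium replicate 5, apart from the next medium library at 360 CPM, and this gap took up most of the group's range (0.699 of it, above the 95% critical value of Dixon's test for 6 libraries). The count behind it was 58. It was the 1 such library among the 20 groups of values examined, and chance gives about 1 in 20. The same library had the lowest level of miR-26b-5p in the medium group (1072 CPM).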

How the results depend on the processing

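With DESeq2 44 features passed the threshold over all tested features, against 0 with edgeR, and 0 passed with voom and under every alternative fitted with edgeR. DESeq2 with a library left out, a setting chosen after seeing the data, called 15 (without medium replicate 5) to 68 (without T cell replicate 6) features, and 19 to 27 without 1 of T cell replicates 2 to 5 or of medium replicates 2 and 6. miR-26b-3p changed sign with voom (log2 fold change 0.034) and without both T cell replicate 2 and medium replicate 3 (0.062, likewise chosen after seeing the data). With each library left out it ran from -0.31 to 0.29, positive on leaving out T cell replicate 2, 3 or 4, or else medium replicate 1 or 5, and the cause was not tested. The replicate numbers did not pair the libraries (correlations of deviations between -0.137 and 0.0901), and with the replicate block edgeR called 0 features, with log2 fold changes of 1.32 for miR-26a-5p and 1.06 for miR-26b-5p. These 2 stayed positive in all alternatives run: 1.21 to 1.45 and 0.88 to 1.20 with a library left out, 0.94 to 1.32 and 0.68 to 1.22 otherwise. miR-26a-1-3p and miR-26a-2-3p stayed negative and uncalled, at -0.51 to -0.30 and -0.64 to -0.25 with a library left out. The mean log2 ratio of the guides ran from 0.57 to 0.65, and its difference between groups from 0.20 to 0.33. At least 50 counts in at least 6 libraries left 307 features and no value for the passenger strands. Depth limits the passenger strands most, at 7 to 58 counts a library.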
